A study of Mus musculus with 4 samples.

Results

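The 30 genes described here encode the enzymes of the tricarboxylic acid (TCA) cycle, the pyruvate dehydrogenase complex that feeds it, and enzymes of anaplerosis, the reactions that refill it. They were chosen by gene symbol as members of the pathway, with earlier results of these data known. All 30 were found among the 19840 genes of the table. All 30 were also among the 14070 genes that received an adjusted p-value, so no member was lost to a filter on low values.

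The RNA came from mouse embryonic stem cells in the naive state, the pluripotent state of the early epiblast, maintained in 2i/LIF medium (kinase inhibitors plus leukaemia inhibitory factor). Cells carried a lentiviral hairpin that targets Lncenc1, a long noncoding RNA (shLincenc1, 2 libraries) or a control hairpin (shCtrl, 2 libraries), both from the plko.1 vector, and all were selected with puromycin for 2 days. The growth protocol names the lines E14TG2a and R1, and 2 hairpins were designed per gene, but the labels tie no library to a line or to a hairpin, and nothing says whether replicate libraries are separate cultures. The p-values below therefore set group differences against a spread estimated only from these libraries. That spread may be technical.

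The deposited table compares the groups without saying which was the numerator. Here the groups are named by their level of Lncenc1: Lncenc1-low with libraries L1 and L2, and Lncenc1-high with libraries H1 and H2. Lncenc1 (ENSMUSG00000078952.8) had 2126 and 2121 normalized reads in Lncenc1-low, against 6400 and 7250 in Lncenc1-high, and a log2 fold change of 1.68 ± 0.19 (SE) per the authors' deposited table. If the hairpin lowered its target, Lncenc1-low is the shLincenc1 group, and Lncenc1 cannot then check the knockdown. Every fold change is printed as deposited, Lncenc1-high over Lncenc1-low, so a positive value means a higher level in Lncenc1-high.

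The values of single libraries were worked back from the means in the table and are reads divided by the size factor of the library. The recovered reads came to 11562396 in L1 and 10905549 in L2, against 27558968 in H1 and 11416755 in H2. All 10 pluripotency markers listed for the cells were present, with summed normalized reads of 74433 in L1 and 72842 in L2, against 91023 in H1 and 84346 in H2. Their log2 fold changes per the authors' deposited table were all positive, 0 were called by DESeq2, and 3 (Nanog, Tbx3 and Dppa5a) had an unadjusted p under 0.05. Over all tested genes DESeq2 called 1.53%, and 8.82% had an unadjusted p under 0.05, the background for each marker count here. Of the 7 fibroblast markers, the collagen gene Col3a1 had at most 2.46 normalized reads in any library and Col1a1 at most 11.1. Fn1 and Vim held nearly all of the fibroblast sum of 14063 and 13376 in Lncenc1-low, against 17247 and 16283 in Lncenc1-high. The sum hides mixed directions. Of the 5 tested, 3 had negative and 2 positive log2 fold changes per the authors' deposited table, with a median of -0.38. DESeq2 called 0 of them, and 1 had an unadjusted p under 0.05. The primitive endoderm markers summed to 27.1 and 29.7 in Lncenc1-low, against 34.9 and 32.6 in Lncenc1-high, and the trophoblast markers to 865 and 742, against 676 and 459. The 3 tested trophoblast markers differed in direction, with 2 positive and 1 negative log2 fold changes, from -0.72 to 2.51 per the authors' deposited table. DESeq2 called 0 of these 3, and 2 had an unadjusted p under 0.05. The primed epiblast markers summed to 2380 in L1 and 4125 in L2, against 1938 in H1 and 2124 in H2, most of it Dnmt3b. In such bulk RNA fewer cells of a type and less RNA per cell cannot be told apart.

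Pyruvate made by glycolysis enters the mitochondrion and is oxidised by pyruvate dehydrogenase to acetyl-CoA, which citrate synthase joins to oxaloacetate. The cycle then oxidises citrate back to oxaloacetate and passes electrons to the respiratory chain. Intermediates that leave for lipid, amino acid or nucleotide synthesis are replaced by pyruvate carboxylase and by glutamate entering as 2-oxoglutarate. Naive embryonic stem cells are known to use both glycolysis and mitochondrial respiration, and 2-oxoglutarate is also a substrate of enzymes that remove methyl groups from DNA and histones.

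None of the 30 genes passed an adjusted p under 0.05 between the groups. DESeq2 called 0 of 30 in the authors' deposited table, with a smallest adjusted p of 0.547, where 1.53% of all tested genes were called. At an unadjusted p under 0.05 there was 1 member, the pyruvate carboxylase gene Pcx, where 8.82% of all tested genes passed. Limma voom on the recovered counts also called 0, with 2 members at an unadjusted p under 0.05, Pcx and Glud1, and the refitted negative binomial Wald test called 0 as well. A p that misses the threshold does not show equal levels, so the intervals give the limit. The 95% interval of the log2 fold change in the authors' deposited table stayed within a 2-fold difference either way for 28 of 30 members (93.3%). The share was 54.0% over all tested genes, and 87.3% over the 7222 of them with means in the members' range. The exceptions were Pcx, whose interval ran from -1.10 to -0.01, and the citrate synthase gene Cs, from -0.13 to 1.00, just past the bound. For 18 members, or 60.0%, it stayed within 1.5-fold, against 33.2% of the genes in that range. The range runs from 243 to 5152 normalized reads, and the genes in it were not matched to the members by level. The part of read level in these shares, and in later comparisons with that range, was not tested.

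The direction of the differences was mixed. Of the log2 fold changes per the authors' deposited table, 21 were positive and 9 negative, with a median of 0.06 for the 30 members and -0.01 for all tested genes. They ran from -0.55 for Pcx to 0.44 for Cs. The median size of the log2 fold change, sign aside, was 0.12 for the members, 0.24 for all tested genes and 0.17 for tested genes in the same range of means. The 25 mitochondrial enzymes had a median of 0.07, and the 5 cytosolic ones, Aco1, Idh1, Mdh1, Me1 and Got1, a median of 0.03. Both Lncenc1-low libraries lay above both Lncenc1-high libraries for 4 members, Aco1, Suclg2, Pcx and Glud1, a pattern found in 20.7% of all tested genes. The opposite pattern was found for 7 members, Pdhb, Dlst, Sucla2, Sdha, Sdhd, Fh1 and Got1, and in 20.6% of all tested genes. The other 19 overlapped. As shares, 13.3% and 23.3% of the members lie below and near these backgrounds.

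**Figure D1:**
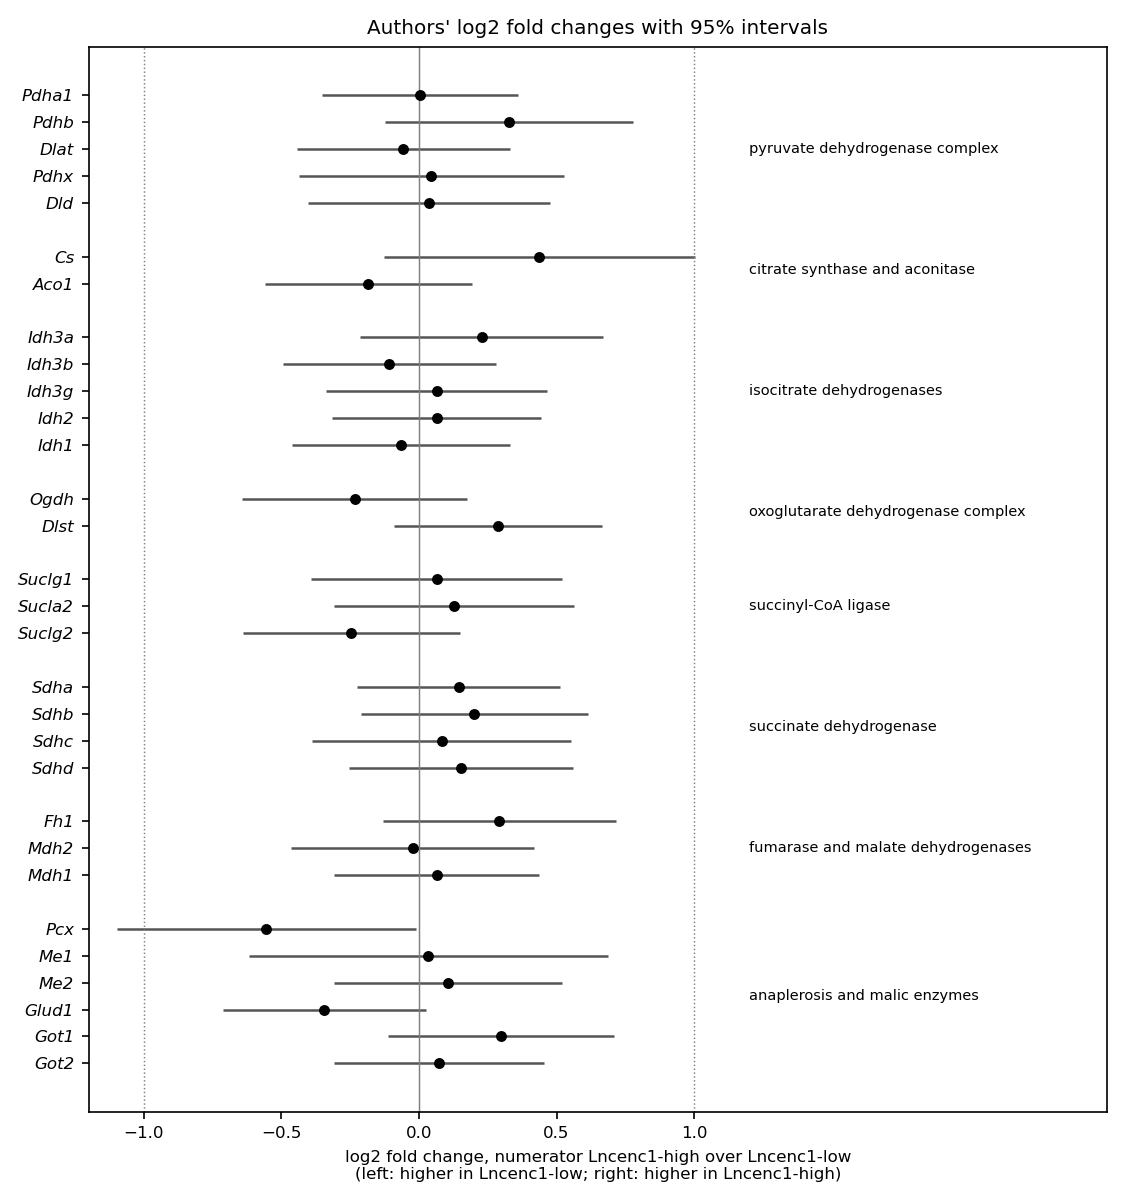
Log2 fold changes of the 30 genes (points, Lncenc1-high over Lncenc1-low) with 95% intervals (bars) from the authors' deposited table, grouped by role. The vertical dotted lines mark 2-fold differences. The interval of Pcx alone lies wholly to one side of 0, and those of Pcx and Cs cross a dotted line.

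Levels of different genes are compared here as normalized reads per kilobase of the longest coding transcript. On that scale the 30 genes spanned 24.6-fold over all 4 libraries. Highest were Idh3g, the gamma subunit of the NAD-dependent isocitrate dehydrogenase, at 1816 per kilobase, Pdha1, the catalytic alpha subunit of pyruvate dehydrogenase, at 1809, Cs at 1687 and the cytosolic isocitrate dehydrogenase Idh1 at 1587. Lowest were Sdhc, a membrane anchor of succinate dehydrogenase, at 210 per kilobase, Pcx at 94.0 and the cytosolic malic enzyme Me1 at 73.9. Neighbours near the top were not separable: Idh3g had 1775 per kilobase in Lncenc1-low and 1857 in Lncenc1-high, and Pdha1 had 1806 and 1811. Pcx and Me1, by contrast, lay below every other member in every library. With the mean in place of the longest transcript length, a gene moved by at most 8 ranks, but the order at the top changed. Idh3g went from rank 1 to 5, Pdha1 from 2 to 6 and Cs from 3 to 8, while Idh1 went from 4 to 1. Pcx and Me1 stayed at ranks 29 and 30. Between the groups no gene moved by more than 6 ranks.

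**Figure D2:**
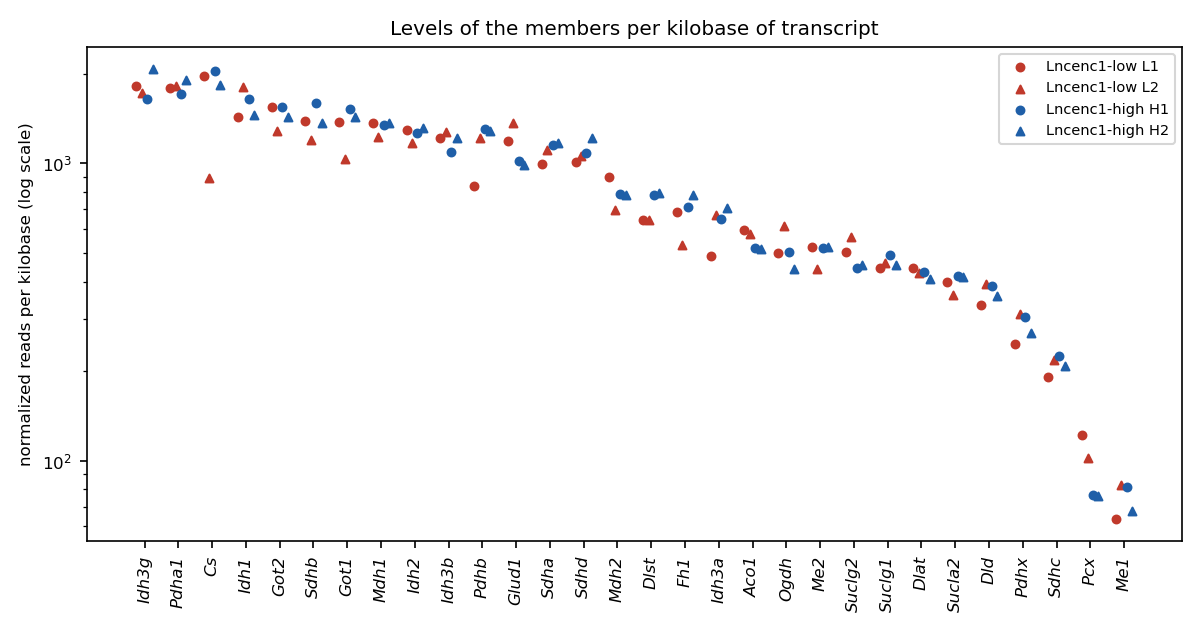
Normalized reads per kilobase of the longest coding transcript (log axis) of the 30 genes, ordered by their mean, with 1 point per library. Red points are the Lncenc1-low libraries L1 and L2 and blue points the Lncenc1-high libraries H1 and H2. Pcx and Me1 lie below all other genes, and 1 red point of Cs lies far under the other 3.

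Pyruvate dehydrogenase is a multienzyme complex, and its 5 genes had log2 fold changes from -0.06 to 0.33 per the authors' deposited table, with 0 of 5 called. Pdha1 had 5107 and 5182 normalized reads in Lncenc1-low, against 4889 and 5429 in Lncenc1-high, so the groups overlapped. Its log2 fold change in the authors' deposited table was 0.00 ± 0.18 (SE). Pdhb, the beta subunit that pairs with Pdha1, had 1272 and 1849 in Lncenc1-low, against 1972 and 1939 in Lncenc1-high, with L1 low and L2 close to the other libraries. Its deposited log2 fold change of 0.33 ± 0.23 (SE, the authors' deposited table) became 0.08 without L1 and 0.62 without L2 in the refit. Dlat, the acetyltransferase core, had 1794 and 1725 in Lncenc1-low, against 1739 and 1645 in Lncenc1-high. Pdhx, which anchors the dihydrolipoyl dehydrogenase to the core, had 616 and 779 in Lncenc1-low, against 762 and 675 in Lncenc1-high. Dld, that dehydrogenase, which the oxoglutarate complex shares, had 852 and 999 in Lncenc1-low, against 985 and 911 in Lncenc1-high. For these last 3 genes the groups overlapped.

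Citrate synthase, the entry step of the cycle, was the member with the most uneven libraries. Cs (ENSMUSG00000005683.7) had 5777 normalized reads in L1 and 2608 in L2, against 5979 in H1 and 5376 in H2. Thus 3 libraries were alike and L2 stood at 48.5% of the lowest of the others. Only 17 of the 3413 genes that averaged 1000 or more normalized reads had L2 at or under that ratio to the lowest other library, or 0.498%. The next member by this measure was Got1, at a ratio of 0.750. The Cs log2 fold change was 0.44 ± 0.29 (SE) per the authors' deposited table, with a DESeq2 adjusted p of 0.780. In the refit it was 1.12 without L1 and -0.03 without L2, so L2 decides its size. L2 also had the highest primed epiblast marker sum given above, and the part of those markers in the Cs value was not tested.

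Aconitase turns citrate into isocitrate, and the member Aco1 is the cytosolic form, which also serves as iron regulatory protein. Aco1 had 2290 and 2225 normalized reads in Lncenc1-low, against 1995 and 1977 in Lncenc1-high, with no overlap. Its log2 fold change in the authors' deposited table was -0.18 ± 0.19 (SE), smaller than its error.

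The isocitrate dehydrogenases make 2-oxoglutarate, and 0 of 5 were called. Idh3a, the catalytic subunit of the NAD-dependent enzyme of the cycle, had 1263 and 1731 normalized reads in Lncenc1-low, against 1682 and 1825 in Lncenc1-high, with L1 alone low. Its log2 fold change was 0.23 ± 0.22 (SE) per the authors' deposited table and 0.02 without L1 in the refit. Idh3b, a regulatory subunit, had 1969 and 2061 in Lncenc1-low, against 1770 and 1973 in Lncenc1-high. Idh3g had 2433 and 2291 in Lncenc1-low, against 2187 and 2756 in Lncenc1-high. Both regulatory subunits overlapped between the groups. The span of Nop56, on the opposite strand, overlaps that of Idh3b in the annotation, introns included. Nop56 had a mean of 10974 normalized reads, against 1943 for Idh3b. Overlap of exons was not checked and whether counting used the strand is not stated. It is therefore not known if reads of this pair were mixed. Apart from Nop56 and Lrfn4, which overlaps Pcx, the overlapping genes with a value in the table had at most 13.5% of the reads of their member. The NADP-dependent mitochondrial enzyme Idh2 had 2260 and 2052 in Lncenc1-low, against 2216 and 2296 in Lncenc1-high. Its cytosolic counterpart Idh1 had 3305 and 4171 in Lncenc1-low, against 3787 and 3351 in Lncenc1-high. Per kilobase the ratio of Idh1 to Idh2 was 1.11 and 1.54 in Lncenc1-low, against 1.30 and 1.11 in Lncenc1-high, so the balance of these isozymes overlapped.

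The oxoglutarate dehydrogenase complex converts 2-oxoglutarate to succinyl-CoA, and its own 2 genes had log2 fold changes of opposite sign. Ogdh, the decarboxylase, had 2054 and 2537 normalized reads in Lncenc1-low, against 2076 and 1827 in Lncenc1-high, with overlap, and a log2 fold change of -0.23 ± 0.21 (SE) per the authors' deposited table. Dlst, the succinyltransferase core, had 1787 and 1776 in Lncenc1-low, against 2158 and 2192 in Lncenc1-high. Its libraries were tight within each group and did not overlap, at 1781 ± 7.73 in Lncenc1-low and 2175 ± 24 in Lncenc1-high (SD, n = 2 each). Its log2 fold change was 0.29 ± 0.19 (SE) per the authors' deposited table and its DESeq2 adjusted p was 0.788. DESeq2 moves the spread of a gene toward that of genes of similar level.

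Succinyl-CoA ligase pairs the common subunit Suclg1 with either Sucla2, which makes ATP, or Suclg2, which makes GTP, and 0 of 3 were called. Suclg1 had 674 and 699 normalized reads in Lncenc1-low, against 746 and 689 in Lncenc1-high. Sucla2 had 890 and 803 in Lncenc1-low, against 928 and 921 in Lncenc1-high. Suclg2 had 1691 and 1908 in Lncenc1-low, against 1503 and 1533 in Lncenc1-high. The partner subunits thus lay on opposite sides, Sucla2 with both Lncenc1-high libraries above and Suclg2 with both Lncenc1-low libraries above. Per kilobase the ratio of Suclg2 to Sucla2 was 1.26 and 1.57 in Lncenc1-low, against 1.07 and 1.10 in Lncenc1-high, with no overlap. Their log2 fold changes per the authors' deposited table, 0.13 ± 0.22 for Sucla2 and -0.25 ± 0.20 for Suclg2 (SE), each lay within 1.96 standard errors of 0, and the difference between them was not tested.

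Succinate dehydrogenase links the cycle to the respiratory chain, and all 4 of its log2 fold changes were positive, with 0 of 4 called. Sdha, the flavoprotein that oxidises succinate, had 2877 and 3227 normalized reads in Lncenc1-low, against 3346 and 3406 in Lncenc1-high. Sdhb, the iron-sulfur subunit, had 1584 and 1366 in Lncenc1-low, against 1823 and 1566 in Lncenc1-high. Of the membrane anchors, Sdhc had 604 and 692 in Lncenc1-low, against 711 and 660 in Lncenc1-high, and Sdhd had 1246 and 1301, against 1334 and 1500. Sdha and Sdhd did not overlap between the groups, and Sdhb and Sdhc did. The 4 log2 fold changes ran from 0.08 to 0.20 per the authors' deposited table, each smaller than its standard error.

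Fumarase and malate dehydrogenase close the cycle, and 0 of 3 genes were called. Fh1, the fumarase, had 1814 and 1399 normalized reads in Lncenc1-low, against 1880 and 2056 in Lncenc1-high, with no overlap, and a log2 fold change of 0.29 ± 0.22 (SE) per the authors' deposited table. Mdh2, the mitochondrial malate dehydrogenase, had 1307 and 1015 in Lncenc1-low, against 1148 and 1137 in Lncenc1-high. Mdh1, the cytosolic enzyme of the malate-aspartate shuttle, had 2893 and 2609 in Lncenc1-low, against 2848 and 2904 in Lncenc1-high. Both overlapped, and so did their ratio per kilobase, with 1.52 and 1.76 in Lncenc1-low, against 1.70 and 1.75 in Lncenc1-high.

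**Figure D3:**
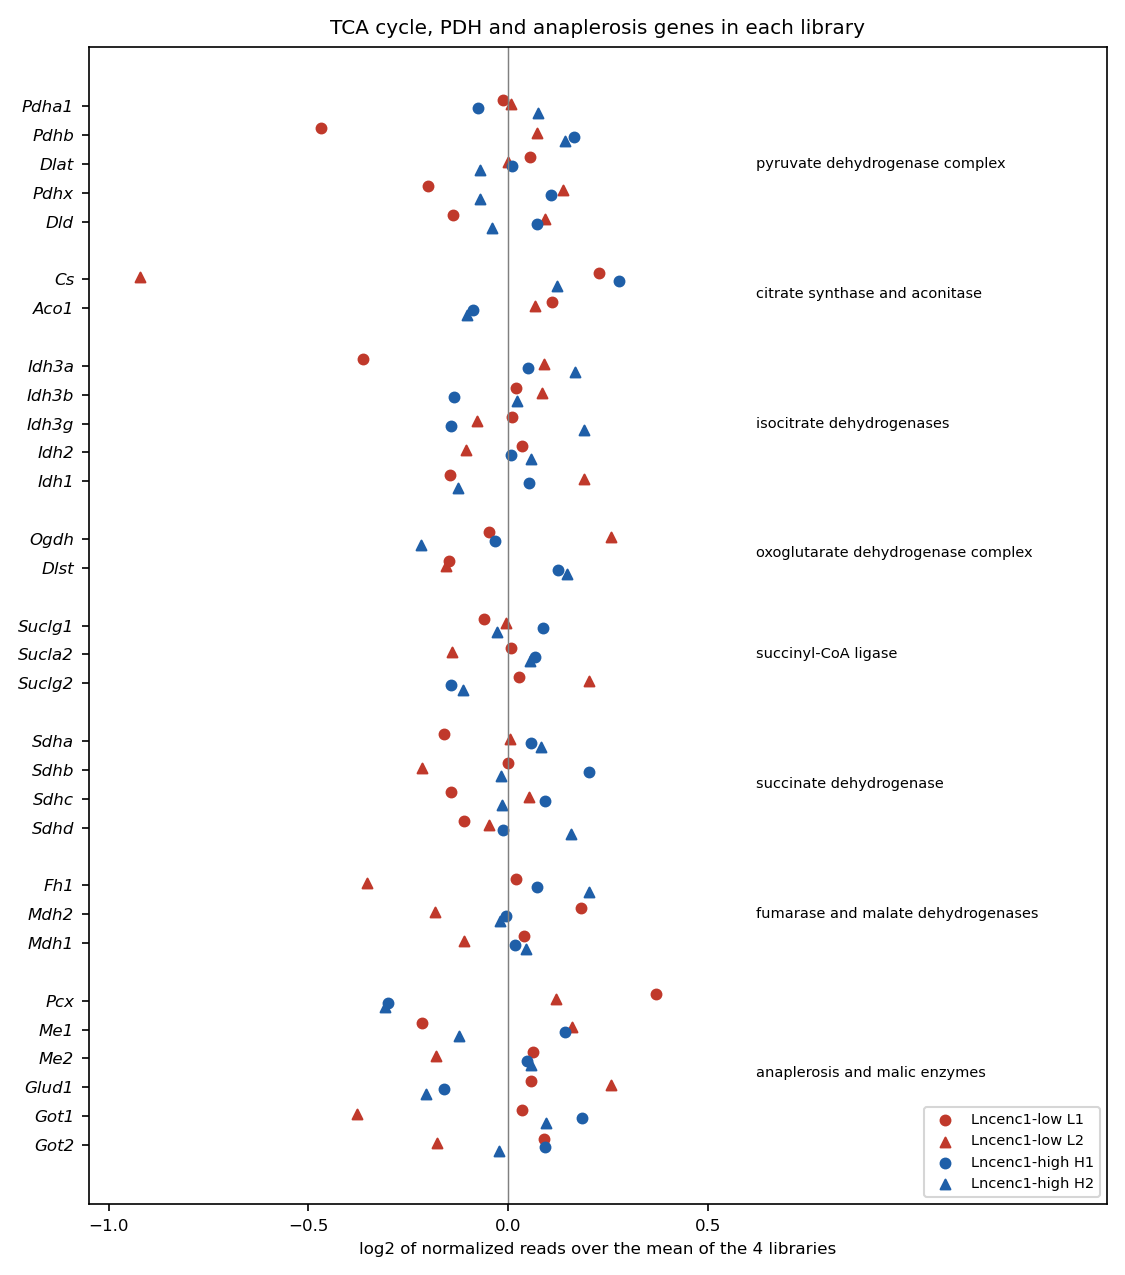
Log2 of the normalized reads of each library over the mean of the 4 libraries, for the 30 genes by role. Red symbols are the Lncenc1-low libraries L1 (circle) and L2 (triangle), and blue symbols the Lncenc1-high libraries H1 (circle) and H2 (triangle). Red and blue symbols are interleaved for 19 genes, Pcx has both red symbols on the right, and the red triangle of Cs is the farthest point.

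The members with the smallest p-values were the anaplerotic genes Pcx and Glud1, both with higher levels in Lncenc1-low and neither called. Pcx (ENSMUSG00000024892.14), which carboxylates pyruvate to oxaloacetate, had 504 and 424 normalized reads in Lncenc1-low, against 317 and 315 in Lncenc1-high. The groups did not overlap, at 464 ± 56.7 in Lncenc1-low and 316 ± 1.32 in Lncenc1-high (SD, n = 2 each). The log2 fold change of Pcx in the authors' deposited table was -0.55 ± 0.28 (SE), with a DESeq2 unadjusted p of 0.045 and an adjusted p of 0.547. In the refit its log2 fold change lay between -0.67 without L2 and -0.42 without L1. The span of a gene on the opposite strand, Lrfn4, overlaps that of Pcx in the annotation, introns included. Lrfn4 had a mean of 213 normalized reads, 54.7% of the reads of Pcx. Its log2 fold change was 0.14 ± 0.34 (SE) per the authors' deposited table. Overlap of exons was not checked, and no source used here says whether counting used the strand. Whether reads of Pcx and Lrfn4 were mixed is therefore not known.

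Glud1, the glutamate dehydrogenase that yields 2-oxoglutarate, had 4017 and 4620 normalized reads in Lncenc1-low, against 3458 and 3348 in Lncenc1-high. Both Lncenc1-low libraries lay above both others, and the log2 fold change in the authors' deposited table was -0.34 ± 0.19 (SE), with a DESeq2 adjusted p of 0.642. The aspartate transaminases also link glutamate to the cycle and share the shuttle with the malate dehydrogenases. The cytosolic Got1 had 2829 and 2123 in Lncenc1-low, against 3137 and 2951 in Lncenc1-high, with no overlap and with L2 the lowest. Its log2 fold change was 0.30 ± 0.21 (SE) per the authors' deposited table, and 0.52 without L1 and 0.11 without L2 in the refit. The mitochondrial Got2 had 3915 and 3248 in Lncenc1-low, against 3922 and 3620 in Lncenc1-high. Per kilobase the ratio of Got1 to Got2 was 0.888 and 0.804 in Lncenc1-low, against 0.983 and 1.00 in Lncenc1-high, without overlap, and this difference was not tested.

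The malic enzymes turn malate into pyruvate. The cytosolic Me1 had 209 and 272 normalized reads in Lncenc1-low, against 268 and 223 in Lncenc1-high. The mitochondrial Me2 had 1381 and 1168 in Lncenc1-low, against 1367 and 1376 in Lncenc1-high. Neither was called, both overlapped, and their log2 fold changes per the authors' deposited table were 0.03 ± 0.33 for Me1 and 0.11 ± 0.21 for Me2 (SE). The 2 routes for pyruvate into the cycle can be set side by side as the ratio of Pcx to Pdha1 per kilobase. It was 0.068 and 0.056 in Lncenc1-low, against 0.044 and 0.040 in Lncenc1-high, so it did not overlap, and it carries the same 4 Pcx values. The ratios per kilobase of Me1 to Me2, Idh3a to Idh2 and Pdhx to Pdha1 were also taken, and each overlapped between the groups. How often ratios of other gene pairs lack overlap was not tested.

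Libraries of the same group also differed from each other. Across the 30 genes the median size of the log2 ratio of L1 to L2 was 0.21, and that of H1 to H2 was 0.11. The median size of the log2 fold change between the groups was 0.12. That value compares groups of 2 libraries, while the within-group ratios compare single libraries, so their sizes cannot be set against each other directly. Over all tested genes the within-group medians were larger, at 0.35 and 0.20, and in the members' range of means they were 0.24 and 0.13. L1 was the lowest library for 10 members and L2 for 11, against 4 for H1 and 5 for H2. Among all tested genes L1 was the lowest for 26.1% and L2 for 31.2%, against 20.0% for H1 and 22.7% for H2. Summed over the 30 genes, normalized reads came to 61216 in L1 and 58859 in L2, against 62933 in H1 and 62376 in H2. Without Cs the sums were 55438 and 56251 in Lncenc1-low, against 56954 and 57001 in Lncenc1-high. This order depends on the scaling: in CPM, reads scaled to the recovered total of each library, the sums without Cs were 3891 in L1 and 4174 in L2, against 4026 in H1 and 3980 in H2, so the groups overlapped. With Cs they were 4296 and 4367 in Lncenc1-low, against 4448 and 4355 in Lncenc1-high, also with overlap. The recovered totals lack 12 abundant genes that hold 9.41% of the summed means, and the share of those genes in each library is not known.

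**Figure D4:**
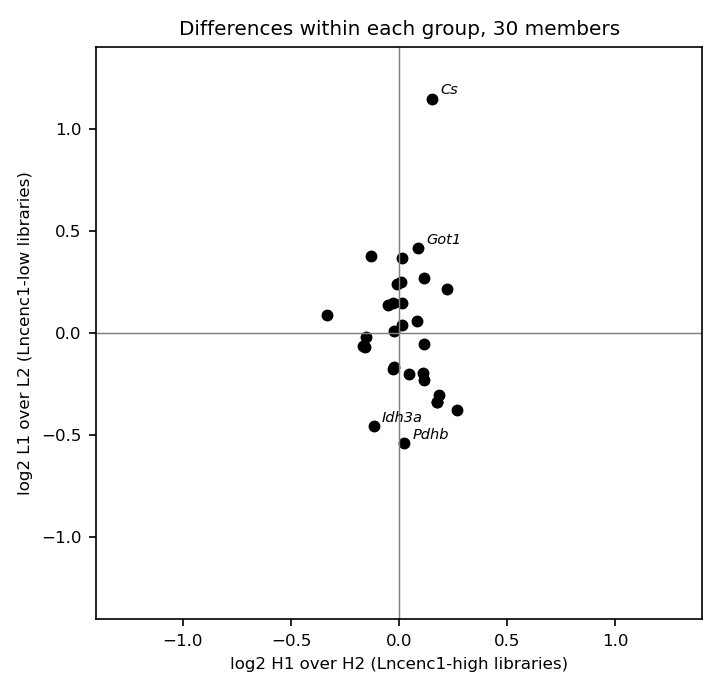
Each point is 1 of the 30 genes, with the log2 ratio of L1 to L2 in Lncenc1-low on the vertical axis and that of H1 to H2 in Lncenc1-high on the horizontal axis, on equal scales. The points spread more along the vertical axis, where the median size is 0.21 against 0.11, and Cs lies apart at the top.

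Promoters are printed for Pcx and Cs, the members with the smallest DESeq2 p among negative and among positive log2 fold changes. Each is the 250 bases before the annotated start, from RefSeq on build GRCm38.p6, which is not the build named by the submitters (mm9). Capitals mark matches on either strand to motifs common in promoters of housekeeping genes: the GC box GGGCGG, the CCAAT box CCAAT and the E-box CACGTG. The Pcx window is chr19:4510222-4510471 on the plus strand, and Pcx has another annotated start as well. The Cs window is chr10:128337477-128337726, also on the plus strand.
Pcx: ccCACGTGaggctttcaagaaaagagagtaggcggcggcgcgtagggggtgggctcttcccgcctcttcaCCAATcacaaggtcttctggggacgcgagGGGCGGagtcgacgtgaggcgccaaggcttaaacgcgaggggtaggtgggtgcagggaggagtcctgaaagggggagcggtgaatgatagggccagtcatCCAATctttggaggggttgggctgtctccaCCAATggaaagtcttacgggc
Cs: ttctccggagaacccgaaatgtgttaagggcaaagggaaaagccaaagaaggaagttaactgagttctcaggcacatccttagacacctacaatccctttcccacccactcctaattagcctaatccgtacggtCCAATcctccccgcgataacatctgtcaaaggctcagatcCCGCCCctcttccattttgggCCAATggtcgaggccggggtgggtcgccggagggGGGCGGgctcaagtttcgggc

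Both windows hold GC boxes and CCAAT boxes. In Pcx the first base of the E-box lies 248 bases before the start, that of the GC box 151, and those of the CCAAT boxes 180, 51 and 21. In Cs the GC boxes begin 76 and 21 bases before the start and the CCAAT boxes 116 and 55. A RefSeq window was found for 27 of the 30 genes, not for Idh3a, Me2 and Sdhc. For 21 of these 27, the 30 bases after the start were found in a GENCODE transcript of the same gene. The shares use all 27 windows. A GC box was present in 17 of 27 windows (63.0%), where 32.7% of all 32851 windows hold one, and a CCAAT box in 14 (51.9%), against 33.8%. The E-box was present in Pcx alone (3.70%), where 6.02% of all windows hold it. The motif GCGCATGC, part of the site of the mitochondrial gene regulator NRF1, was present in Sdhb and Glud1 (7.41%, against 2.26%). The ETS core CCGGAAG matched Idh3g, Sdhd and Glud1 (11.1%, against 6.91%), and the estrogen-related receptor motif AAGGTCA matched Got1 (3.70%, against 4.08%). All motifs were searched on both strands, and in the printed windows no match overlaps another. The median GC content was 61.6% in the members' windows and 52.4% in all windows, and the part of base composition in the motif shares was not tested. A match is a description of letters and no evidence that a factor binds there.

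Among other genes of the pathway, 1 of 42 tested was called: Pck2, the mitochondrial phosphoenolpyruvate carboxykinase, which takes oxaloacetate out of the cycle. Pck2 (ENSMUSG00000040618.6) fell in Lncenc1-low, with 209 and 370 normalized reads, against 814 and 657 in Lncenc1-high. Its log2 fold change in the authors' deposited table was 1.35 ± 0.31 (SE), with a DESeq2 adjusted p of 0.00296. Both Lncenc1-low libraries lay below both others. The call was lost in limma voom (adjusted p = 0.184), and in the refit without L1 (0.202) and without H1 (0.130), and it was kept without L2 (0.00113) and without H2 (0.0160). The log2 fold change lay between 0.99 without L1 and 1.81 without L2. The summed pluripotency markers given above were also lower in both Lncenc1-low libraries, and their part in the Pck2 value was not tested. Of the list, Slc25a21 was not analysed here, and Mdh1b, Me3 and Pck1 had too few reads for an adjusted p.

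At an unadjusted p under 0.05 there were 6 of the 42 (14.3%), where 8.82% of all tested genes passed, and all 6 had higher levels in Lncenc1-high. Besides Pck2 they were the glutaminase Gls2, the mitochondrial alanine transaminase Gpt2, the succinate semialdehyde dehydrogenase Aldh5a1, the proline synthesis enzyme Aldh18a1 and the cytosolic acetyl-CoA synthetase Acss2. Their log2 fold changes ran from 0.63 to 0.77 per the authors' deposited table, and their DESeq2 adjusted p-values from 0.0751 to 0.427. Gpt2 had 815 and 1068 normalized reads in Lncenc1-low, against 1726 and 1420 in Lncenc1-high. Aldh18a1 had 1961 and 1562 in Lncenc1-low, against 2859 and 2574 in Lncenc1-high. Gls2 had 286 and 293 in Lncenc1-low, against 449 and 479 in Lncenc1-high. In all, 0 of 7 genes of glutamine and transaminase entry were called, and 4 had an unadjusted p under 0.05 in the DESeq2 table. The 7 log2 fold changes ran from -0.24 to 0.77 per the authors' deposited table, 5 positive and 2 negative, with a median of 0.63. Of the 7 genes, 3 overlapped between the groups.

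The genes that control entry of pyruvate were measured with less precision. Of the mitochondrial pyruvate carriers, pyruvate dehydrogenase kinases and phosphatases, 0 of 9 were called and 0 had an unadjusted p under 0.05 in the authors' deposited DESeq2 table, with 8 negative log2 fold changes and a median of -0.20. The carrier subunit Mpc1 had 279 and 363 normalized reads in Lncenc1-low, against 242 and 193 in Lncenc1-high, and a log2 fold change of -0.55 ± 0.33 (SE) per the authors' deposited table. The kinase Pdk2 had the lowest log2 fold change of the list, -0.56 ± 1.30 (SE, the authors' deposited table), on at most 12.4 normalized reads. The phosphatase Pdp1 had the highest, 0.11 ± 0.38 (SE, the authors' deposited table). The kinase Pdk1 had 2134 and 3231 in Lncenc1-low, against 1839 and 2638 in Lncenc1-high, with overlap.

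No gene was called among those that attach lipoic acid to the dehydrogenase cores (Lias, Lipt1 and Lipt2, log2 fold changes from -0.85 to -0.13 per the authors' deposited table), and none had an unadjusted p under 0.05 by DESeq2. The same held for the succinate dehydrogenase assembly factors Sdhaf1 to Sdhaf4, from -0.32 to 0.06, and for the 7 tested mitochondrial carriers, from -0.27 for the dicarboxylate carrier Slc25a10 to 0.65 for the glutamate carrier Slc25a18. It held for the propionate entry genes Pcca, Pccb, Mcee and Mmut, from -0.31 to 0.55. It also held for the 2-hydroxyglutarate dehydrogenase D2hgdh, at 1.23 ± 0.73 (SE), and for the oxoglutarate dehydrogenase relatives Ogdhl and Dhtkd1, at 0.21 ± 0.19 and 0.02 ± 0.24 (SE), all in the authors' deposited table. The citrate lyase Acly, which makes cytosolic acetyl-CoA, had 11516 and 11227 normalized reads in Lncenc1-low, against 9967 and 9524 in Lncenc1-high. Its log2 fold change was -0.22 ± 0.17 (SE) per the authors' deposited table. In the citrate use list that holds Acly, Acss2 and Pck2, log2 fold changes ran from -0.30 to 1.35, 3 positive and 2 negative.

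**Figure D5:**
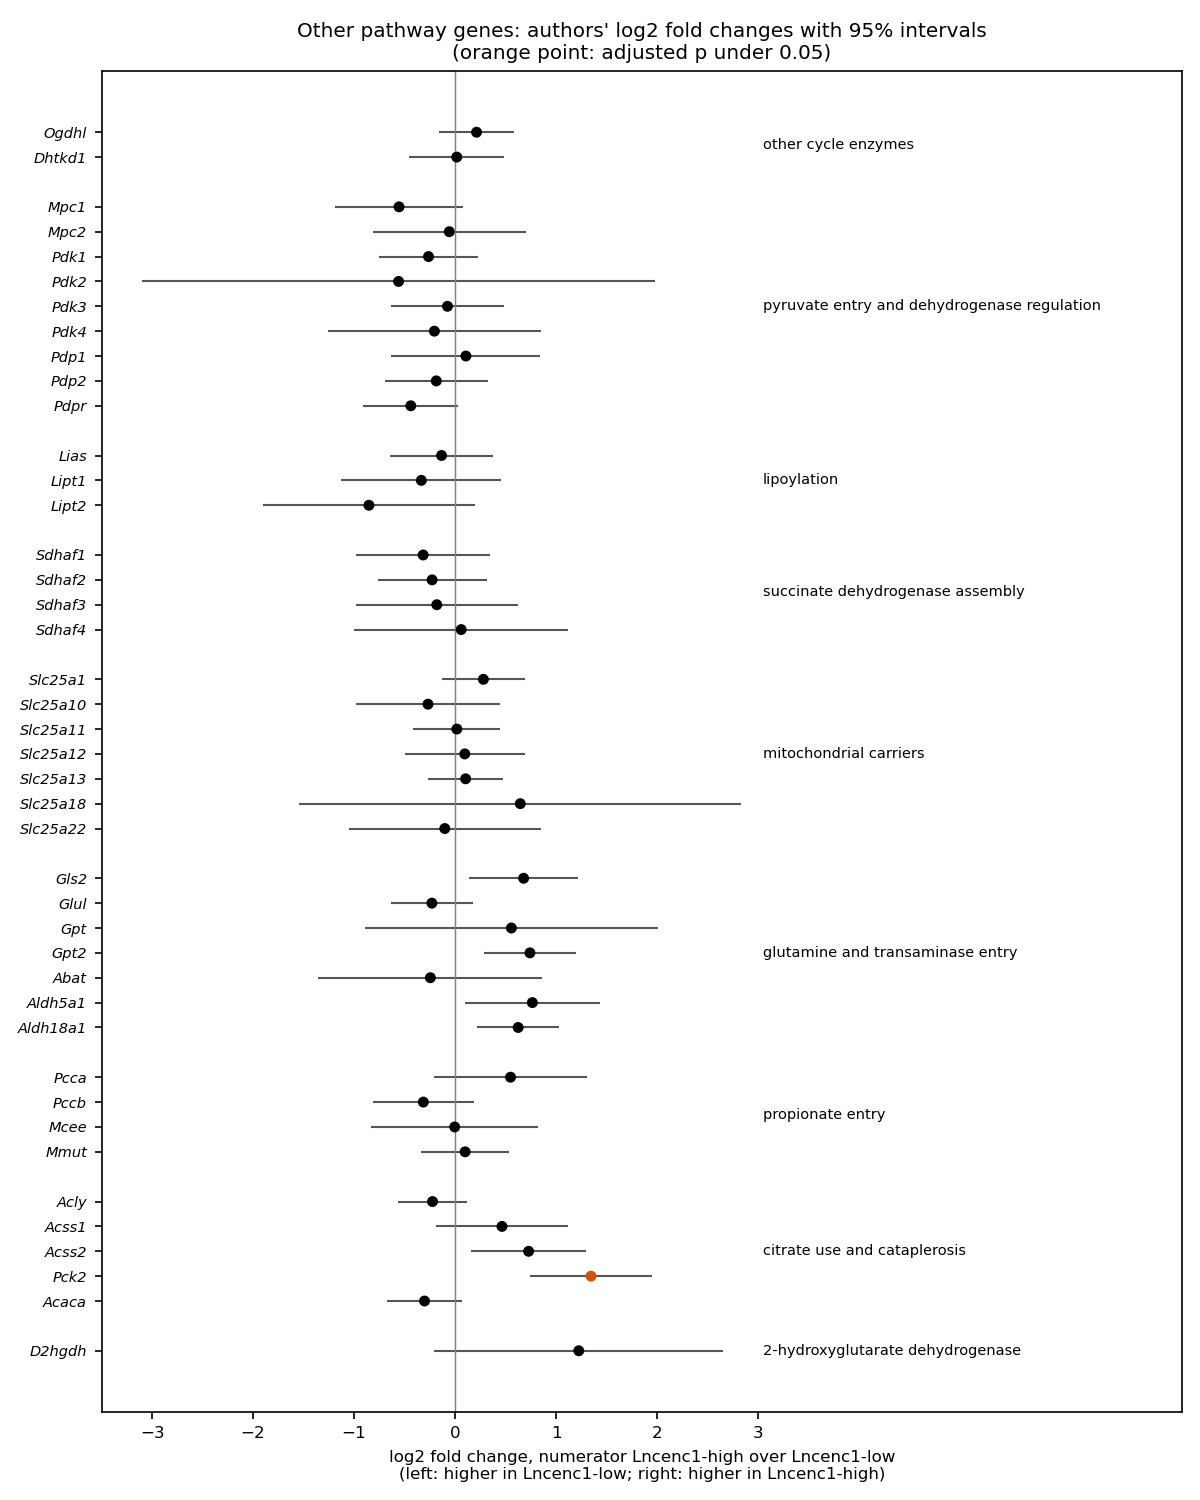
Log2 fold changes (points, Lncenc1-high over Lncenc1-low) with 95% intervals (bars) from the authors' deposited table for the 42 tested other genes of the pathway, by list. The orange point is Pck2, the 1 gene with an adjusted p under 0.05, at 1.35.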

How the data were processed

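Per the labels' protocols, ribosomal RNA was depleted from total RNA and strand-specific libraries were sequenced. Tools named in the submitters' processing notes are DESeq2 1.8.2, HTSeq and TopHat2, on mm9. Their settings, the annotation and any use of the strand in counting were not given in the sources used here. Per the file headers, the deposited table gives per gene a mean normalized read count over all libraries (a signal), a log2 fold change with its log2 standard error, a Wald statistic (a score) and a p-value and adjusted p-value, all computed by the authors. It has no column per library.

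The authors' DESeq2 call at an adjusted p under 0.05 is the main result. The edgeR test planned for count tables was not run, as the table holds no counts per library. Whole counts were recovered for 19828 of 19840 genes from the deposited means, which are sums of 4 whole counts each over a size factor, and from the fold changes. The size factors were 0.811 for L1, 0.809 for L2, 1.95 for H1 and 0.797 for H2. The other 12 genes are abundant, with 9.41% of the summed means, and none is a member. Recovered library totals lack their reads. When refitted, 13916 of the 14053 tested genes that had reads in each group came within 1e-05 of the deposited log2 fold change. L1 to H2 are names of recovered libraries and are not mapped to samples of the labels. The counts gave values per library and these alternatives: a Wald refit of a negative binomial model, with the dispersion that the deposited standard error implies, limma 3.58.1 voom (R 4.3.3), library totals, and fits without each library. The scripts (Python 3.11.15) were tested on simulated data. Intervals are the fold change ± 1.96 standard errors.

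Names were matched by Ensembl identifier for 19707 genes. Lengths and overlaps are from GENCODE on GRCm38, and promoters from RefSeq on GRCm38.p6. The members and gene lists were chosen with earlier results of these data known, and some genes are not reported here. Every member is named. Of other pathway genes, those called, the extremes of a list and those of lists of 5 or fewer are. Exceptions are the lowest of the glutamine entry and citrate use lists, given as values only. Gpt2, Aldh18a1, Gls2, Aldh5a1, Acss2, Mpc1, Pdk1 and Acly were chosen after their values were seen.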

Additional observations from a re-analysis of the deposited data

How the results depend on the processing

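The count of called members was 0 under the authors' test, limma voom, the refit, library totals, no filter on the mean, and without each library. It was 1 at an unadjusted p under 0.05, where Pcx passed. The median log2 fold change of the members was 0.06, and 0.07 with voom, 0.03 with library totals and 0.04 to 0.10 without each library. Library totals shifted the median of all tested genes to -0.04, so signs near 0 depend on the scaling. The sign changed for 1 member with voom, 3 with library totals, 6 without L1, 6 without L2, 3 without H1 and 3 without H2, all from log2 fold changes of at most 0.11 in size except that of Cs, which was 0.44, without L2. Only Cs, Pdhb, Idh3a and Got1 moved by a standard error or more, each without L1 or L2. No paired analysis was possible because the table's columns carry no replicate numbers. With 2 libraries in each group, an exact permutation test of 1 gene cannot go below p = 0.333 (two-sided), and fits without 1 library assume that the lone library varies like the others. The authors' normalization fixes only relative levels, and RNA levels say nothing of enzyme activity or flux.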
